A study of Mus musculus with 6 samples.

Results

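The regions described here are the 90 open-chromatin peaks around 9 genes of the limb ectoderm, Trp63, Sp6, Sp8, Grhl2, Grhl3, Krt5, Krt14, Epcam and Cdh1, out of 61954 peaks measured by ATAC-seq in mouse forelimb buds. A peak was counted to a gene if its midpoint lay inside the gene or within 150 kb of the gene's start site in GENCODE M21 (mm10), a rule that uses no measured value, although the genes were picked with earlier results of these data known. ATAC-seq marks accessible DNA by the sites at which the transposase Tn5 inserts adapters. The 4 libraries came from distal forelimb buds of E11.5 embryos on a mixed C57Bl/6 x 129 background, 2 from wild-type and 2 from Hox13-/- embryos, in which both Hoxa13 (allele Hoxa13Str) and Hoxd13 (allele Hoxd13lacZ) are inactivated in every cell. A library took 50000 cells from the left and right buds of 1 embryo, so the spread between libraries is that between embryos, with 2 per genotype. Accessibility at Hoxa13 and Hoxd13 does not measure their products, so the genotype labels were not checked from these values. Another 2 libraries, from proximal buds, were not analysed here.

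The limb bud is a core of mesenchyme under a sheet of ectoderm, and the sheet thickens at the distal rim into the apical ectodermal ridge. The ridge sends fibroblast growth factors to the mesenchyme beneath it and so keeps the bud growing. Hoxa13 and Hoxd13 encode transcription factors of the posterior HOX group that act in the distal mesenchyme. Trp63 encodes p63, the transcription factor on which stratified epithelium and the ridge depend. Sp6 and Sp8 encode zinc finger factors needed in the ectoderm for ridge signalling, Grhl2 and Grhl3 encode grainyhead-like factors of epithelial junctions and barrier, Krt5 and Krt14 encode the keratin pair of basal epidermal cells, and Epcam and Cdh1 encode epithelial adhesion proteins, Cdh1 being E-cadherin. The question put to these peaks is whether the accessibility of ectoderm genes in the bulk bud differed between the genotypes. In a bulk library, a smaller share of ectoderm cells, lower accessibility per ectoderm cell and a difference in the mesenchyme cannot be told apart.

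The sequences below are those of the peaks on which the results turn, read from GRCm38 on the plus strand. Names give the distance of the peak midpoint from the gene start, positive in the direction of transcription. They are called peaks of both directions, with and without the letters CNATAAA, the core bound by posterior HOX factors, and 2 peaks that were not called. The first 4 were lower in Hox13-/-, and 3 of them hold the core, which is in capitals.
Grhl3 +23.5 kb, chr4:135549960-135550206: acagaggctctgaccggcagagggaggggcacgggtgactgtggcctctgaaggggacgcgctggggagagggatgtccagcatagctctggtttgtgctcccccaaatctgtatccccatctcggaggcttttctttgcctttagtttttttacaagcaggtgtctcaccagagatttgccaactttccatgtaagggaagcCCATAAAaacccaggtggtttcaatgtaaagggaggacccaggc
Krt14 +118.4 kb, chr11:100089017-100089302: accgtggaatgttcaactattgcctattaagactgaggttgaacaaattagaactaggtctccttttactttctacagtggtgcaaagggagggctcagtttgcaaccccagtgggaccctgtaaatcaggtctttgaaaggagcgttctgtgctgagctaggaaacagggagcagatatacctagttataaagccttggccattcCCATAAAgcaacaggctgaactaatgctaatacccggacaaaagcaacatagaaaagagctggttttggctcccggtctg
Sp6 -26.7 kb, chr11:96986652-96986786: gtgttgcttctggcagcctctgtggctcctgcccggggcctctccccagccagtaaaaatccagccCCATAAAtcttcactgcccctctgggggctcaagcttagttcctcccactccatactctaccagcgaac
Cdh1 +129.9 kb, chr8:106733162-106733308: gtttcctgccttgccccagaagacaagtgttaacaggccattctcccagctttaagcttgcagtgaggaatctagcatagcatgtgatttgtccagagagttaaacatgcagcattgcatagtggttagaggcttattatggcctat
The next 3 were higher in Hox13-/-, and 300 bases of each are printed, the first 300 of the Cdh1 peak, which include the core, and the middle 300 of the other two, which there hold no CNATAAA.
Cdh1 -63.9 kb, chr8:106539073-106539372: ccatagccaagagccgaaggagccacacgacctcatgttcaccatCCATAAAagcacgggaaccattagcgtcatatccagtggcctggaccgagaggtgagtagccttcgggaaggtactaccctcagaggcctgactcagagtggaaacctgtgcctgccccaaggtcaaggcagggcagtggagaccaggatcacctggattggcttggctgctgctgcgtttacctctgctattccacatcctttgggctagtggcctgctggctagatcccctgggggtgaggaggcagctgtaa
Grhl3 +2.6 kb, chr4:135570861-135571160: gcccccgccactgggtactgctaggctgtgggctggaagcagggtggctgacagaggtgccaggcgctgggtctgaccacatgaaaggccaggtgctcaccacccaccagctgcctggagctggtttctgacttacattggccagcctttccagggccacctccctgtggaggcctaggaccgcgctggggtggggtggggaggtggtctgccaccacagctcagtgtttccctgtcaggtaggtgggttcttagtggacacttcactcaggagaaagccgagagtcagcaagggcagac
Sp8 +10.1 kb, chr12:118856233-118856532: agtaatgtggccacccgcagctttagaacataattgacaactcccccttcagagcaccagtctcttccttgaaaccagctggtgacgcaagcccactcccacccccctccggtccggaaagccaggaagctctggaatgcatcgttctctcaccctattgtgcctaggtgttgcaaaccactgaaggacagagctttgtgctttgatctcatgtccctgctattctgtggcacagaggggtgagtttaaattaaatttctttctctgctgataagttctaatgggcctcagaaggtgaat
The last pair were not called. The Trp63 peak, in an intron, is the most accessible of that gene and holds no CNATAAA. The Sp8 peak is the only one of the printed set within 1 kb of a start site of its own gene, and its GC box (GGGCGG), a sequence that SP factors bind, is in capitals.
Trp63 +63.2 kb, chr16:25746867-25747147: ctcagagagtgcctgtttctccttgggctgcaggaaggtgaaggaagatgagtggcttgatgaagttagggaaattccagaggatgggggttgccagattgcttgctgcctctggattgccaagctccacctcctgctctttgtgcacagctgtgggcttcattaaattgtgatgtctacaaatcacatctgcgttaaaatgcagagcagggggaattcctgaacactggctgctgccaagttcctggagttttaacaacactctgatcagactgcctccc
Sp8 +0.8 kb, chr12:118847096-118847227: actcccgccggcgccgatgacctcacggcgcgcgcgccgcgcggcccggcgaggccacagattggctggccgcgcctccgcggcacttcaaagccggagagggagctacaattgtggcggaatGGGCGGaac

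Of the 9 genes, 4 had a peak within 1 kb of a start site of their own (Sp8, Grhl3, Epcam and Cdh1) and 5 had none (Trp63, Sp6, Grhl2, Krt5 and Krt14). Only 19 of the 90 peaks lay at the start site of, or inside, a member gene, and the other 71 lay between genes or in neighbouring genes. The gene with the nearest protein-coding start was the member itself for 29 peaks. Krt5 had no peak at its start or in its body, and the nearest lay 133.3 kb from its start. The single Krt14 peak inside the gene was 3.9 kb from the start. Trp63 had 3 peaks, all inside the gene, and the nearest to any of its 8 annotated transcript starts was 54.9 kb away. These starts include internal ones, from which the form common in epidermis is made. The absence of a peak here means that no library gave one in the deposited set, not that the site was closed.

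The values are rLog, a log2 measure that the authors made comparable between libraries and shrank towards the mean of each peak. The start-site peaks of member genes were weak. After subtracting the log2 of the peak length in kb, so that levels can be compared between peaks, the Grhl3 start-site peak was at 6.65, which is percentile 24.5 of all 20167 peaks within 1 kb of any start site. On the same scale the Cdh1 peak was at percentile 29.2, the Sp8 peak at 15.6 and the Epcam peak at 4.88. None of the 4 was called a peak in all 4 libraries, and 3 of the 4 were called in 1 library only. Of the limb mesenchyme genes on the marker list, all 10 had a start-site peak, against 4 of the 9 ectoderm genes. On the scale per kb the mesenchyme peaks had a median of 6.86, against 6.55 for the member start-site peaks. Called in all 4 libraries were 42.3% of the mesenchyme peaks, and 26.9% were called in 1 only. Over all start-site peaks these shares were 56.2% and 21.7%.

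Differences between genotypes are given as Hox13-/- minus wild type on the rLog scale. They were tested with limma over all 61954 peaks, two-sided, with Benjamini-Hochberg adjustment, and a peak is called lower or higher at an adjusted p under 0.05. The standard error (SE) comes largely from a spread pooled over all peaks, not from the 2 embryos per genotype at that peak. A fit without 1 library leaves 1 embryo in a genotype, so its calls rest on this pooled spread and do not measure repeatability between embryos. Of the 90 peaks, 10 were lower in Hox13-/- (11.1%), 5 were higher (5.56%) and 75 passed in neither direction. Over all peaks the shares were 8.31% lower and 11.4% higher. No member peak passed the threshold together with a difference beyond 2-fold, which 0.224% of all peaks did downwards and 0.313% upwards. At an unadjusted p under 0.05, 15 of the 90 member peaks were lower and 13 were higher. Of all 61954 peaks, 9229 were lower and 10480 higher at this threshold. The counts lean on single libraries: without Hox13-/- replicate 1, 5 peaks were lower and 3 higher, and without wild-type replicate 1, 3 were higher. Only 6 of the 15 called peaks, 4 lower and 2 higher, were called in each of the 4 fits that left out 1 library.

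The mean rLog over the 90 peaks was 4.68 and 4.67 in wild type against 4.65 and 4.64 in the Hox13-/- libraries. Over all peaks the means were 4.91 and 4.91 against 4.93 and 4.92. The median difference was -0.05 for the member peaks and -0.01 for all peaks, and 52 member differences were negative and 38 positive. The median also varied with where a peak lay. Member peaks at the start site of another gene had a median of -0.14 (26 peaks, 5 lower and 0 higher at adjusted p, 7 and 2 unadjusted, where all start-site peaks had 8.37% lower and 2.07% higher), those at their own start site -0.15 (4 peaks), and those inside the member gene 0.04 (15 peaks, 1 lower and 1 higher). All start-site peaks had a median of -0.10 and all peaks away from start sites 0.07. Under a GC correction these medians came closer to 0: -0.07 at start sites of other genes, where 3 peaks were then lower and 1 higher, 0.00 at own start sites, and -0.03 over all start-site peaks. The median of all 90 turned from -0.05 to 0.01.

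Among the 19 peaks at or inside the genes themselves, 1 was lower (5.26%), 1 was higher (5.26%), and both are in introns of Grhl3. Of all peaks inside a gene and away from start sites, 8.1% were lower and 15.5% higher. The median difference of the 19 was -0.14 and the range ran from -0.62 to 0.43. The number called among these 19 was between 1 and 3 when a library was left out, with 1 without Hox13-/- replicate 1 and 3 without wild-type replicate 1 or Hox13-/- replicate 2.

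**Figure D1:**
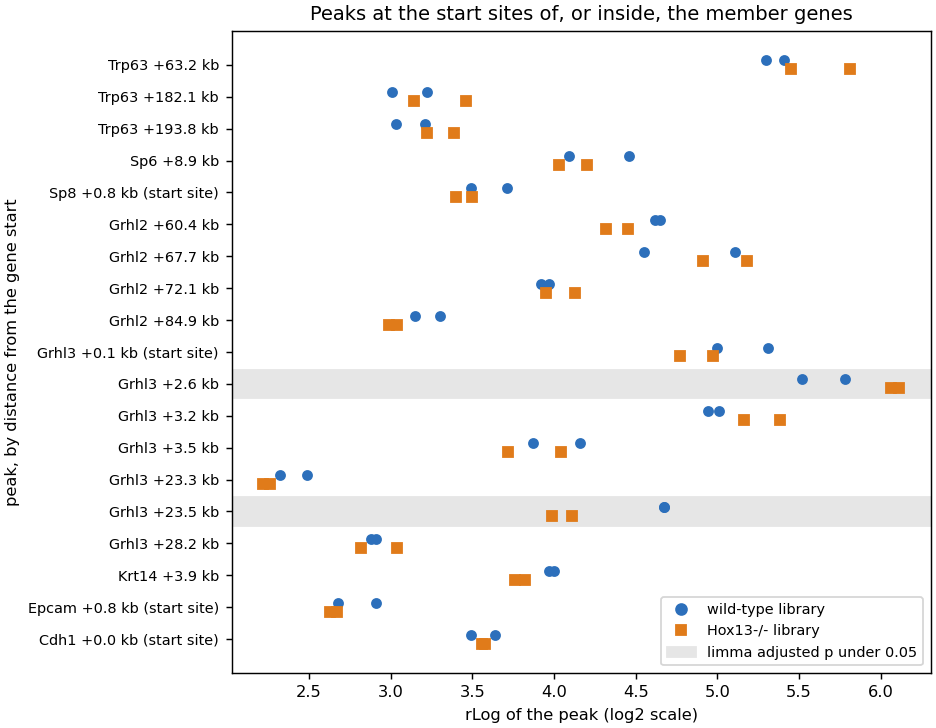
rLog (x axis, log2 scale) in each library of the 19 peaks at the start sites of, or inside, the member genes (y axis, named by distance from the gene start), with circles for the 2 wild-type and squares for the 2 Hox13-/- libraries. The shaded Grhl3 peaks at +23.5 kb and +2.6 kb passed the test, the first lower and the second higher in Hox13-/-, and no Krt5 peak is shown because none was found there.

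Averaged per gene, both wild-type values exceeded both Hox13-/- values for Sp6 and Krt14 and were below both for Trp63 and Cdh1, and the libraries overlapped for the other 5 genes. These means are a description without a test, since with 2 libraries against 2 an exact two-sided permutation test cannot give a p below 0.333. The largest of these differences were at Krt14 and Trp63, with opposite signs, and both rest on few values. The Krt14 mean over 7 peaks was 5.28 and 5.30 in wild type against 5.03 and 5.10 in Hox13-/-, a difference of -0.22, which is -0.12 over the 6 peaks other than that with the lowest difference. The Trp63 mean over 3 peaks was 3.88 and 3.85 against 4.11 and 4.04, a difference of 0.21, and 0.12 under the GC correction. The Sp6 mean over 24 peaks was 4.71 and 4.75 against 4.65 and 4.63, a difference of -0.09. By place, the Sp6 difference was -0.14 over 12 peaks at start sites of other genes, 0.00 over 4 inside other genes and -0.05 over 7 between genes. For Krt14 it was -0.25 over 5 peaks at start sites of other genes. Over all start-site peaks the mean difference was -0.09. Under the GC correction the gene means differed by -0.03 for Sp6, -0.23 for Krt14 and 0.00 for Cdh1. The other 6 genes differed by between -0.05 and 0.05.

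**Figure D2:**
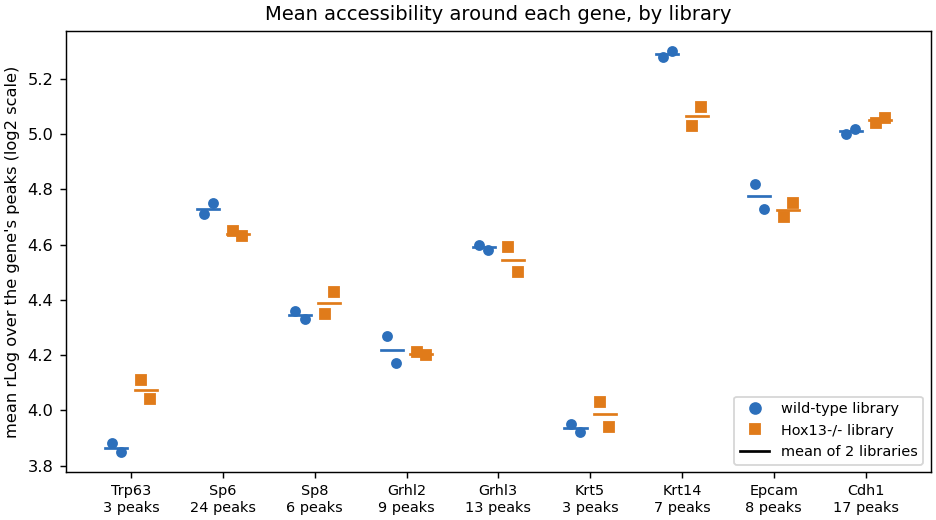
Mean rLog over the peaks of each gene (y axis, log2 scale) in each library, with circles for wild type, squares for Hox13-/- and bars for the mean of the 2 libraries of a genotype. The genotype means differ by -0.22 at Krt14 and by 0.21 at Trp63, untested, and lie within 0.10 of each other at the other 7 genes.

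Trp63 on chromosome 16 (25683763 to 25892102, plus strand) had no called peak, and the differences of its 3 peaks were all positive. The intronic peak at +63.2 kb, the only one inside a member gene with a peak call in all 4 libraries, had rLog 5.41 and 5.30 in wild type against 5.81 and 5.45 in Hox13-/-. The Hox13-/- libraries lay above the wild-type libraries, but the difference of 0.27 (SE 0.130) did not pass the limma test (adjusted p = 0.12). Without Hox13-/- replicate 2 it was 0.46 with an adjusted p of 0.040. The peaks at +182.1 kb and +193.8 kb differed by 0.18 and 0.19, with limma adjusted p of 0.28 and 0.26.

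The ridge factors Sp6 and Sp8 had different surroundings. Sp6 (chromosome 11, 97013394 to 97024734, plus strand) lies among many genes, and its 24 peaks included 2 lower, 0 higher and 22 neither, with 5 lower and 1 higher at unadjusted p. The peak between genes at -26.7 kb, called as a peak in both wild-type libraries alone, had rLog 4.08 and 4.10 in wild type against 3.59 and 3.68 in Hox13-/-. Its difference was -0.46 (SE 0.126, limma adjusted p = 0.003), and without Hox13-/- replicate 1 it was -0.41 with an adjusted p of 0.055. The protein-coding start nearest to this peak is that of Sp2, which encodes another SP factor. The peak at +16.6 kb, at the start of Scrn2, had rLog 6.22 and 6.19 against 5.78 and 5.88, a difference of -0.38 (limma adjusted p = 0.023). That call was lost whichever library was left out. The most accessible Sp6 peak, at the Sp2 start site, had rLog 8.99 and 8.94 against 8.84 and 8.65 (limma adjusted p = 0.19). Inside Sp6 itself the single peak, over exons of Sp6 and of the gene model Gm11532, had overlapping libraries at 4.46 and 4.09 against 4.03 and 4.20.

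Sp8 (chromosome 12, 118846329 to 118852576, plus strand) had 6 peaks, of which 1 was higher and 0 were lower, with 1 in each direction at unadjusted p. Its start-site peak, in the gene at +0.8 kb, had rLog 3.71 and 3.49 in wild type against 3.50 and 3.40 in Hox13-/-, overlapping values with a difference of -0.15 (SE 0.121, limma adjusted p = 0.42). The higher peak lies 10.1 kb from the start, beyond the gene's end, and was called as a peak in both Hox13-/- libraries and in no wild-type library. It had rLog 4.34 and 4.43 in wild type against 4.82 and 4.82 in Hox13-/-, a difference of 0.44 (SE 0.131, limma adjusted p = 0.0069), and was called in 2 of the 4 fits that left out a library. Under the GC correction the difference was 0.34 and the call was lost. The neighbouring peak at +8.8 kb, the most accessible of the gene and called in all 4 libraries, was at 6.44 and 6.34 against 6.38 and 6.56, a difference of 0.08 with overlapping libraries.

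**Figure D3:**
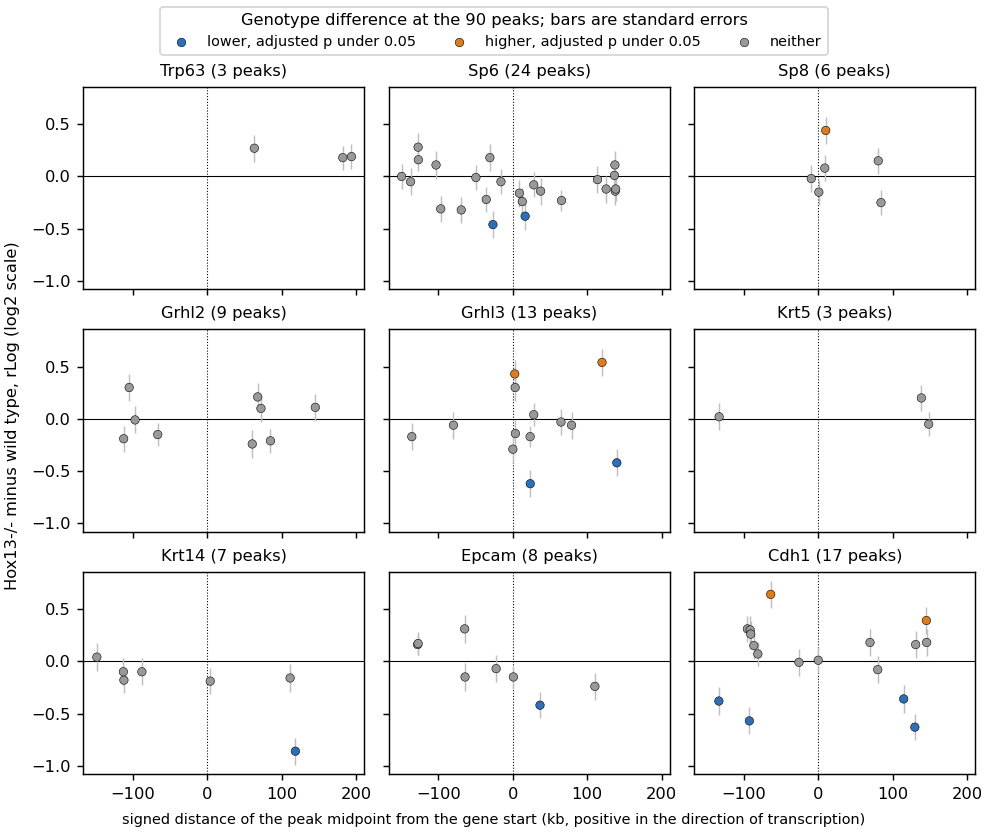
Hox13-/- minus wild type on the rLog scale (y axis, log2) against the distance of the peak from the gene start (x axis, kb, positive in the direction of transcription), 1 panel per gene, for all 90 peaks, with bars for limma standard errors. The 10 lower and 5 higher peaks are coloured, and 13 of these 15 lie outside the member genes and away from their start sites.

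The grainyhead-like genes differed from each other in their called peaks. Grhl2 (chromosome 15, 37233036 to 37363569, plus strand) had 9 peaks and none was called by limma (0 lower and 1 higher at unadjusted p). Its 4 intronic peaks, between +60.4 and +84.9 kb, differed by -0.24 to 0.21, and its most accessible peak, at -97.2 kb, had rLog 6.05 and 5.93 against 6.05 and 5.90. Grhl3 (chromosome 4, 135541888 to 135573630, minus strand) had 13 peaks, of which 2 were lower and 2 were higher. That the genes differ in this respect was not tested.

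Inside Grhl3, peaks that passed the test moved in opposite directions. The intronic peak at +23.5 kb was called in both wild-type libraries alone and had rLog 4.67 and 4.67 in wild type against 4.11 and 3.99 in Hox13-/-. The genotypes did not overlap, and the difference was -0.62 (SE 0.130, limma adjusted p = 4.8e-05). The intronic peak at +2.6 kb, called in both Hox13-/- libraries alone, had rLog 5.52 and 5.78 in wild type against 6.11 and 6.06 in Hox13-/-, a difference of 0.43 (SE 0.130, limma adjusted p = 0.0073). The first was called whichever library was left out, and the second in 2 of the 4 fits. Close to the second, the peak at +3.2 kb differed by 0.30 (limma adjusted p = 0.092) and the start-site peak at +0.1 kb by -0.29, with rLog 5.00 and 5.31 against 4.77 and 4.97. The start-site difference did not pass the test (SE 0.131, limma adjusted p = 0.11), and without wild-type replicate 1 it was -0.44 with an adjusted p of 0.047. The remaining called peaks lie beyond the gene. At +120.0 kb, inside Nipal3, a peak called in both Hox13-/- libraries alone was higher by 0.54 (5.42 and 5.56 against 6.03 and 6.03, limma adjusted p = 5.5e-04). At +139.9 kb, at the start of Rcan3, a peak was lower by 0.42 on the log2 scale (4.59 and 4.53 against 4.17 and 4.13, limma adjusted p = 0.011), and the call was lost in 3 of the 4 fits that left out a library and under a GC correction (-0.27, adjusted p = 0.15).

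The largest difference of the 90 peaks was near Krt14 on the map but not at the gene. It was the peak at +118.4 kb, within 1 kb of a start of Krt32, which encodes a hair keratin. Its rLog was 5.40 and 5.23 in wild type against 4.51 and 4.39 in Hox13-/-, so that both mutant libraries lay well below both wild-type libraries. The difference was -0.86 (SE 0.131, limma adjusted p = 3.9e-09), and between -0.95 and -0.78 with a library left out. The single peak inside Krt14 (chromosome 11, 100203162 to 100207548, minus strand) had rLog 3.97 and 4.00 against 3.76 and 3.82. This is a difference of -0.19 that did not pass the test (limma adjusted p = 0.28). The most accessible peak of the 7, at the start site of the translation factor gene Eif1, differed by -0.18 and did not pass either. The 3 peaks counted to Krt5 (chromosome 15, 101707070 to 101712898, minus strand) lay at or in neighbouring genes, the most accessible of them inside Krt1, and differed by -0.05 to 0.20 with no call.

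Among the adhesion genes, neither start-site peak was called. The Cdh1 start-site peak had rLog 3.64 and 3.49 in wild type against 3.56 and 3.58 in Hox13-/-, a difference of 0.01 (SE 0.122, limma adjusted p = 0.98). The Epcam peak, 0.1 kb from the start of a second transcript, had 2.91 and 2.68 against 2.67 and 2.63, a difference of -0.15 (SE 0.107, limma adjusted p = 0.35). Epcam (chromosome 17, 87635979 to 87651129, plus strand) had 1 lower peak among 8, outside the gene, and no higher one.

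Cdh1 (chromosome 8, 106603351 to 106670246, plus strand) had 17 peaks, with 4 lower and 2 higher, all outside the gene. On the side of Cdh3, which encodes P-cadherin, a peak at the Cdh3 start site, at -92.6 kb, differed between the genotypes. This peak had rLog 6.05 and 6.29 in wild type against 5.69 and 5.50 in Hox13-/-. It was lower by 0.57 on the log2 scale (SE 0.130, limma adjusted p = 1.9e-04). Another start-site peak of Cdh3, at -91.5 kb, lay the other way, with 5.89 and 5.96 against 6.24 and 6.20. Its difference of 0.30 did not pass the test (limma adjusted p = 0.087). Inside Cdh3, at -63.9 kb, a peak had 5.86 and 5.61 against 6.51 and 6.23 and was higher by 0.64 (SE 0.129, limma adjusted p = 2.1e-05). Both calls held whichever library was left out. Between Cdh3 and the gene before it, the most accessible Cdh1 peak, at -95.3 kb, had 6.95 and 6.89 against 7.15 and 7.31. Its difference of 0.31 did not pass the test (limma adjusted p = 0.067) and did so after quantile (0.042) or cyclic loess (0.024) normalization. A peak at -133.6 kb was lower by 0.38 (4.47 and 4.62 against 4.00 and 4.33, limma adjusted p = 0.022) and was called in 2 of the 4 fits that left out a library.

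On the other side of Cdh1, introns of Tango6 held both lower and higher peaks. The peak at +129.9 kb had rLog 3.90 and 3.97 in wild type against 3.33 and 3.28 in Hox13-/-, a difference of -0.63 (SE 0.123, limma adjusted p = 8.3e-06) that was called whichever library was left out. The peak at +145.4 kb, called as a peak in both Hox13-/- libraries alone, had 4.25 and 4.22 against 4.69 and 4.57. It was higher by 0.39 (SE 0.130, limma adjusted p = 0.019), and this call was lost in 3 of the 4 fits without a library and under the GC correction (0.29, adjusted p = 0.11). The fourth lower peak, at +114.9 kb, differed by -0.36 (limma adjusted p = 0.031) and was called in 2 of the 4 fits that left out a library.

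The member peaks were shorter, weaker and richer in GC than the peaks as a whole. Their median length was 220 bp against 250 bp for all peaks, their median mean rLog 4.41 against 4.73, and their median GC content 56.9% against 52.1%. Each library's own peak calls covered 58 and 36 of the 90 in wild type and 49 and 61 in Hox13-/-, and 23 peaks (25.6%) were called in all 4 libraries, against 31.8% of all peaks. Peaks called in both libraries of 1 genotype alone numbered 8 of 90 for wild type and 9 of 90 for Hox13-/-. Over all peaks the same counts were 1848 and 6937 of 61954.

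Short sequences known as the cores bound by ectoderm and HOX factors were searched on both strands as exact letters, and a match is a description, not a site. The grainyhead-like letters AACNNGTT were in 3 of 90 peaks (3.33%, against 4.36% of all peaks), and the paired core of the p53 and p63 family, CATG repeated after 6 free bases, was in 0 of 90 against 0.428% of all peaks. The AP-2 letters GCCNNNGGC were in 16.7% against 19.2%, and the GC box in 31.1% against 26%. The posterior HOX core CNATAAA was in 11 of 90 (12.2%, against 16.5%). By direction it was in 3 of the 10 lower peaks, 1 of the 5 higher and 7 of the 75 others, and over all peaks in 29.7% of the lower and 27.4% of the higher. The 3 lower peaks with the core are those printed above, in Grhl3, near Krt32 and before Sp6.

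Other genes of the same tissue were read from lists, by the peaks within 1 kb of their start sites. The shares called over all 20167 such peaks are given above. Of 38 further genes of surface ectoderm and epithelium, 14 had a start-site peak, and 2 of their 21 peaks were lower and 0 higher (3 and 1 at unadjusted p in limma). One of the lower peaks is the Cdh3 peak at -92.6 kb from Cdh1 given above. Under the GC correction 2 were lower and 1 was higher, with a median of 0.03 in place of -0.05. Of 14 genes of ridge and limb ectoderm signalling, 9 had a start-site peak and none of their 15 peaks was called by limma (1 lower and 0 higher at unadjusted p). Their differences ran from -0.27 to 0.17, with a median of -0.02. The ridge growth factor genes Fgf4, Fgf8 and Fgf17 had no start-site peak, nor had Wnt3 and En1, so the ridge was not read at those starts.

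Start-site peaks of other cell types stood beside these values. Mesenchyme genes had 26 such peaks, 2 lower and 0 higher, with a median of -0.06. The lower peaks were a peak of Pdgfra, a growth factor receptor gene (-0.52, limma adjusted p = 0.0010), and a peak of Twist1, a transcription factor gene (-0.40, limma adjusted p = 0.014). The other start-site peaks of Pdgfra differed by -0.28 to 0.20, and that of Twist1 by -0.01, with no call. Of 12 endothelial genes, 6 had a start-site peak, and 1 of the 7 peaks was lower, with a median of -0.04. It was a peak of the ETS factor gene Erg (-0.46, limma adjusted p = 0.0042), and the other Erg peak differed by 0.06. Red blood cell, macrophage, muscle precursor and neural crest lists had 3, 1, 3 and 5 start-site peaks, with medians of -0.08, 0.15, -0.03 and -0.04, and limma called none of them, also at unadjusted p. Of the member genes' own start-site peaks the median was -0.15, over 4 peaks. Under the GC correction it was 0.00, and those of the mesenchyme and endothelial lists were 0.01 and 0.06. The Twist1 and Erg calls were then lost (limma adjusted p = 0.11 and 0.063), and the Pdgfra call held (-0.39, limma adjusted p = 0.021). Of the mesenchyme peaks, though, 3 were lower and 0 higher under this correction. With a library left out, the Twist1 difference ran from -0.59 to -0.21, smallest without Hox13-/- replicate 2. The Erg difference ran from -0.53 to -0.39 and the Pdgfra difference from -0.59 to -0.45.

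**Figure D4:**
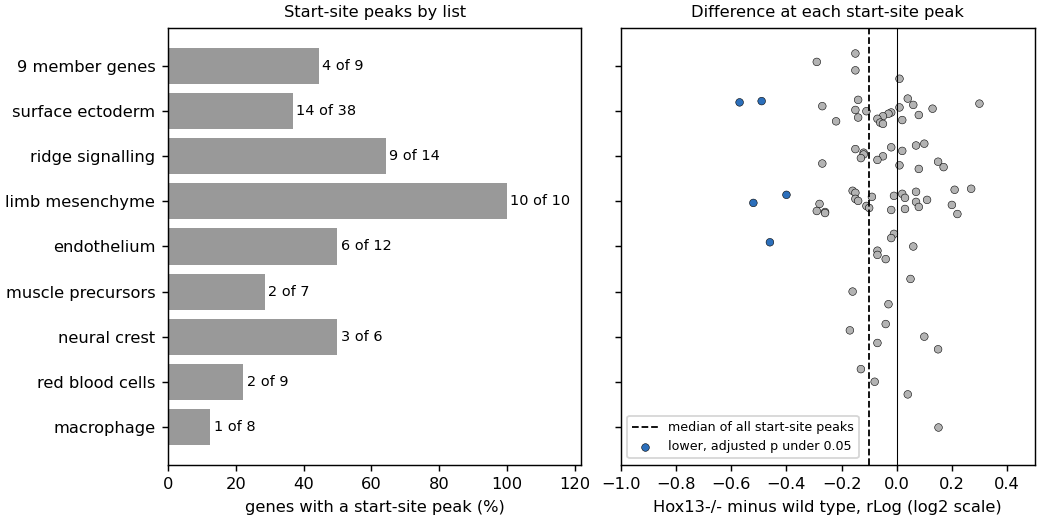
Left, percentage of the genes of each list with a peak within 1 kb of a start site, with 4 of 9 member genes, 10 of 10 limb mesenchyme genes and, at the low end, 1 of 8 macrophage genes. Right, Hox13-/- minus wild type on the rLog scale (log2) at each of those peaks, with called peaks coloured and a dashed line at the median of all start-site peaks, -0.10. No coloured point lies above 0.

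The choice of 150 kb sets the edge of the surroundings. The member peak nearest inside it was at -149.5 kb from Sp6, with group means of 3.20 in wild type and 3.21 in Hox13-/-, and the nearest peak outside it was at -151.3 kb from Sp6, with 6.49 and 6.24. With a limit of 50 kb, 34 peaks remained, of which 4 were lower and 2 were higher. Among the 29 peaks for which the member had the nearest protein-coding start, 1 was lower and 2 were higher. Of all peaks, 8.31% were lower and 11.4% higher.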

How the data were processed

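ATAC-seq reads of 4 distal forelimb bud libraries were processed by the authors. Per the submitters' processing notes and the study's methods, reads were aligned to mm10 with Bowtie2 2.3.1 and handled with SAMtools 1.4.1, peaks were called in each library with MACS2 2.1.1.20160309, and the peaks were merged with HOMER 4.9.1. How duplicate reads, blacklisted regions and the Tn5 offset were handled is not given in the sources used here, and the column names of the table show that the input of an H3K27ac experiment served as the control for the peak calls. The deposited values are rLog, made by the authors with DESeq2 through HOMER on a log2 scale, with size factors and a pull of each peak towards its mean, which makes differences of weak peaks smaller than their fold changes. Read counts per peak are not given, so depth per peak is unknown and intervals for counting error cannot be had. The deposited fold changes and p-values of the authors' own comparison were not used.

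All 61954 peaks, on 19 autosomes, were fitted with limma 3.58.1 in R 4.3.3 (genotype as the 1 term, variance trend, two-sided, Benjamini-Hochberg adjustment), since the test that the study used needs counts. The procedure was tested on simulated data with changes of 1.5 on the log2 scale at 200 of 61954 peaks. It recovered 200 of these and called 18 others. The simulated noise was independent between peaks and held no shift by GC content or start site, as the data do. False calls from such shifts were therefore not tested. The member differences are smaller, from -0.86 to 0.64, and recovery at their size was not tested. The limma p-values rest on a spread shared between peaks, so the SE does not follow the replicates of a single peak. At Grhl3 +23.5 kb the replicate SDs were 0.00095 in wild type and 0.0829 in Hox13-/-. At Trp63 +63.2 kb they were 0.0747 and 0.258, and the SE was 0.13 at both peaks. Genes, start sites and exons came from GENCODE M21 basic, and sequence from GRCm38 with pysam 0.24.0, in Python 3.11.15. Coordinates are counted from 1, and a start-site peak overlaps 1 kb on either side of any annotated transcript start. The member genes and marker lists were chosen with earlier results of these data known. The text names, for each gene, its start-site peaks, its most accessible peak and up to 3 called peaks per direction with the smallest p and the libraries of the genotypes apart, and, for each other list, genes with a called start-site peak. Some peaks were named outside this rule, after their values were seen. These are the Cdh1 peaks at +114.9 and -91.5 kb and the Trp63 peaks at +182.1 and +193.8 kb. The peaks inside Sp6 and Krt14 and the Grhl3 peak at +3.2 kb are also among them. Also outside the rule are peaks given as a range or beside a called peak. These are the intronic Grhl2 peaks, the Krt5 peaks and the uncalled start-site peaks of Pdgfra, Twist1 and Erg. A pair of called start-site peaks that the rule names is not reported here. Alternatives were other scalings, limma without the trend or with robust estimation, filters on mean rLog, a GC correction, the replicate block, other limits and thresholds, and leaving out each library.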

Additional observations from a re-analysis of the deposited data

How the results depend on the processing

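The counts of 10 lower and 5 higher peaks were within 1.5 times of these under every other scaling, filter, GC correction and form of limma tried. With the replicate number as a block they were 10 and 5, and numbers did not pair the libraries (correlation of same-numbered deviations -0.0106). Leaving out 1 library gave 5 to 10 lower and 3 to 5 higher peaks. Narrower choices gave fewer by construction: 4 lower and 2 higher within 50 kb, 1 lower and 2 higher where the member had the nearest protein-coding start, and 6 lower at an adjusted p under 0.01. No peak passed 2-fold under any setting, and at a fold of 1.5 there were 3 lower and 1 higher. Over the 26 named peaks, none reversed. Of 220 values under other settings, 212 stayed on the same side of the threshold, 4 lost the call and 4 gained it, and of 104 with a library left out, 84 stayed, 18 lost it and 2 gained it.

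The mean differences per gene have no test, and those of Grhl2 and Grhl3 changed sign with the filters on mean rLog. Trp63 moved from 0.21 to 0.27 with the upper 75% or 50% of peaks and to 0.12 under GC correction. Sp6 moved from -0.09 to -0.13 under median centring, -0.14 with the upper 50%, -0.03 under GC correction and -0.16 within 50 kb or by nearest start. Sp8 moved from 0.04 to 0.16 with the upper 75% and to 0.09 under GC correction, within 50 kb or by nearest start. Grhl2 moved from -0.01 to 0.08 and 0.10 with the upper 75% and 50% and to -0.07 under GC correction. Grhl3 moved from -0.05 to 0.14 with the upper 50%, Krt14 from -0.22 to -0.26 under median centring, and Epcam from -0.05 to -0.11 and -0.22 with the upper 75% and 50% and to -0.21 within 50 kb. Cdh1 moved from 0.04 to 0.00 under median centring, GC correction or within 50 kb, to 0.01 under quantile normalization or by nearest start, and to 0.08 with the upper 75% or 50%. Median centring moved the median of all peaks by -0.04. Krt5 has no value within 50 kb or by nearest start, because no peak is left. With no read counts, depth limits cannot be stated.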
